A study of Rattus norvegicus with 12 samples.

Results

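The 79 genes described here belong to the cell cycle and mitosis machinery by their names. They were taken from an array of rat transcripts by symbol: A-, B-, D- and E-type cyclins, Cdk1, Cdk2, Cdk4 and Cdk6, CDK inhibitor genes (Cdkn), the numbered Cdc, Mcm and Orc genes, the Cdca, Cenp, Bub and Aurk genes, and a short set of single genes such as Mki67, Top2a, Pcna, Plk1 and Birc5. Cdkn1a and Ccndbp1 were left out of the rule. The members are 79 of 10411 genes with a single symbol, and each was read at its brightest probe set, the group of array probes made for 1 transcript. Of the 16 genes that the rule names in full, Cdk2, Kif11, Kif23 and Rrm2 had no probe set with that single symbol, and no A-type cyclin did. The rule goes by name, and 17 members were classed as caught by name, most of them without a direct part in the cycle in mammals. Among the 17 are the small GTPase Cdc42 and its effectors, the splicing factors Cdc5l and Cdc40, the chaperone partner Cdc37, and Cdc34. Counts over all 79 members include these 17, which are also described separately below.

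The samples were primary cultures of the ventral midbrain of CD1 rat embryos, the region that gives rise to midbrain dopaminergic neurons. Precursors were taken at embryonic day 12 and expanded for 6 days in bFGF (20 ng/ml), a fibroblast growth factor, and in the morphogen SHH (50 ng/ml), both of which keep precursors dividing, and both were then withdrawn for 3 days. On day 9, cultures received 56 mM KCl, a potassium level that depolarizes neurons, for 2 h, or control medium. The groups were depolarized cultures collected 2 h after that period, their controls of the same collection time, depolarized cultures collected 30 min after it, and their controls. Each group held 3 arrays, and each array held pooled RNA of duplicate cultures from embryos of 4 rats that were mixed into 3 separately treated groups, so all errors below describe pooled cultures and not single animals. Across all 12 arrays the midbrain floor plate factor Foxa2 read 8.91 to 10.17 log2 units, and the dopamine synthesis enzymes Ddc and Th read 8.27 to 10.18 and 7.39 to 8.22. The values carry no detection calls, so presence of a marker is not judged from them. Arrays within a group correlated at 0.9957 or more across probe sets, and array medians lay between 8.33 and 8.43.

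As background, division in these cells is driven by cyclins that switch on cyclin-dependent kinases (CDKs) in turn. D- and E-type cyclins with Cdk4, Cdk6 and Cdk2 carry a cell out of G1, the origin recognition and Mcm proteins license and unwind DNA for replication in S phase, and B-type cyclins with Cdk1 start mitosis, in which Aurora and Polo-like kinases, the kinetochore and the anaphase-promoting complex separate the chromosomes. Much of this set is switched off when precursors leave the cycle to become neurons or glia. In mammals, E2F proteins bind promoters of many replication genes, and the DREAM and MuvB complexes bind a CHR element, often near a CCAAT box, in promoters of many mitotic genes.

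Promoters were available for 66 of the 79 members in RefSeq sequence of the GRCr8 assembly (250 bases before to 50 after the annotated start), out of 27457 genes. The 6 shown are replication genes (Mcm2, Mcm5 and Mcm7) and mitotic genes (Cdk1, Plk1 and Birc5). All 6 fell in 2 h controls, and Mcm2, Mcm5, Mcm7 and Plk1 also fell at 2 h after depolarization. They lie at chr4:122918045-122918344 (minus strand) for Mcm2, chr19:13488563-13488862 (plus) for Mcm5, chr12:22163129-22163428 (minus) for Mcm7, chr20:19265043-19265342 (plus) for Cdk1, chr1:186147408-186147707 (plus) for Plk1 and chr10:103571896-103572195 (plus) for Birc5. Each is printed 5′ to 3′ in the direction of the gene. Capitals mark a CHR element (TTTGAA), an E2F element (TTTGGCGC, TTTCCCGC, TTTGCCGC or TTTCGCGC) or a CCAAT box (CCAAT), each on either strand. Elements that overlap run together in capitals, as the paired E2F elements of Mcm2 and the E2F element and CCAAT box of Mcm7 do.

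Mcm2: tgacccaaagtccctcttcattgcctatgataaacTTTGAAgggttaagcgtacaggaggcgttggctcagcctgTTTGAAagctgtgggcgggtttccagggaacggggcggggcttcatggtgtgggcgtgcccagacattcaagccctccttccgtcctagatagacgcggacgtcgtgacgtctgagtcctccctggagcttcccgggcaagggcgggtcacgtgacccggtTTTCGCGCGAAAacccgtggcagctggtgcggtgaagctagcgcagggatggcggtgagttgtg
Mcm5: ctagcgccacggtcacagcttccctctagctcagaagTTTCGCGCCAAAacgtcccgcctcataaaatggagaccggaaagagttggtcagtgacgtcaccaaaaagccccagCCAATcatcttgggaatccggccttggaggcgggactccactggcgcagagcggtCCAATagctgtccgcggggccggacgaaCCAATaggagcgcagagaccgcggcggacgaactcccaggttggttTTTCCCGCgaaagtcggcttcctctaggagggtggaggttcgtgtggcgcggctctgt
Mcm7: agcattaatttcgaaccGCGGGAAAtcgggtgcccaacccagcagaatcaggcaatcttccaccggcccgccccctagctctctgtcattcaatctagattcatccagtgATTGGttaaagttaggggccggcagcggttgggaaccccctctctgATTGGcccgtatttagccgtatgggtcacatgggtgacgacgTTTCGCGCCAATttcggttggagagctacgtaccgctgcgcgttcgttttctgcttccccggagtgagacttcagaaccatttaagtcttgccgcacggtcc
Cdk1: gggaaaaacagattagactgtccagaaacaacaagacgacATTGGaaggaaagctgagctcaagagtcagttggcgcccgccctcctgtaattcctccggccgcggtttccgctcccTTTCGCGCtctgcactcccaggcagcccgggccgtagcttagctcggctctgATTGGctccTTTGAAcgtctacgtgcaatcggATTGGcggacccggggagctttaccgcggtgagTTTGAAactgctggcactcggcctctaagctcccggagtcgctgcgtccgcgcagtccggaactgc
Plk1: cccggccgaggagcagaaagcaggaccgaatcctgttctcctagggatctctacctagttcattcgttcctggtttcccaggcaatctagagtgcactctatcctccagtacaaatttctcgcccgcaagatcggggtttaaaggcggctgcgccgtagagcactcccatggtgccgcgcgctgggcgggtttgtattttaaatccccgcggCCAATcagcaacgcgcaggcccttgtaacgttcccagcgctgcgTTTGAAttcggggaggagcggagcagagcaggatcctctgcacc
Birc5: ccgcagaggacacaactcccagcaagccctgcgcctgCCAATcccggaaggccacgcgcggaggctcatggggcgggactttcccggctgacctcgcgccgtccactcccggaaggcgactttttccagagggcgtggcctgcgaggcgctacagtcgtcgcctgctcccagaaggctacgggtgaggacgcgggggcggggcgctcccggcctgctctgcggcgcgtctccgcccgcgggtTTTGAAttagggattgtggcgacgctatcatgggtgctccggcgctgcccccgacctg

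All 5 Mcm members with a promoter held an E2F element, as did 6 of 11 replication members, against 2.37% of all genes with a promoter. The CHR element was present in 11 of 24 members of the kinetochore, spindle and cytokinesis group and in 19.4% of all genes. It was in 16 of the 41 members with a promoter that fell in 2 h controls, and in 3 of the 25 other members. Genes caught by name, such as Cdc37, Cdc42 and Cdc5l, make up a larger share of those 25 than of the 41. The 2 groups thus differ in role as well as in the control result. In Birc5 the CHR element begins 8 bases before the annotated start, in Plk1 7 bases after it, and in Cdk1 16 and 72 bases before. The CCAAT box was found in 35 of 66 members and in 39.6% of all genes. The cyclic AMP response element TGACGTCA, a site of the activity-dependent factor CREB, was in 6 of 66 members and in 2.0% of all genes. These letter matches describe the windows, were searched with the expression results known, and show no binding.

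Levels are the authors' log2 values, so a difference of 1 log2 unit is a 2-fold change. A gene is said to have risen or fallen where limma's moderated test gave an adjusted p under 0.05 over all 15866 probe sets. The controls of the 2 collection times differed more often among the members than depolarized and control cultures did at either time. In controls collected at 2 h, 47 of 79 members were lower and 4 higher than in controls collected at 30 min, where 17.2% of all probe sets tested were lower and 18.1% higher. The median member difference was -0.34 log2 units, against -0.04 over all probe sets. The 3 arrays of the 2 h controls lay wholly below the 3 arrays of the 30 min controls for 54 members and wholly above for 7, against 27.5% and 22.1% of all probe sets. After depolarization at 2 h, 22 members fell and 6 rose, where 15.7% and 9.51% of all probe sets did. The median member difference there was -0.15, against -0.00069 over all probe sets, and depolarized arrays lay wholly below control arrays for 25 members and above for 7 (22.1% and 15.4% of all probe sets). At 30 min, 18 members fell and 5 rose after depolarization, where 13.1% and 10.8% of all probe sets did. The median there was -0.04 against 0.01, with 23 members wholly below and 12 wholly above control arrays (18.9% and 17.9% of all probe sets). Centring each array on its median changed these splits to 8 members higher and 16 lower at 2 h and to 8 higher and 14 lower at 30 min.

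The responses were small. Depolarized and control means lay within 1.5-fold of each other for 76 of 79 members at 2 h and 78 at 30 min. In 2 h controls, 22 of the 79 members were called lower by at least 1.5-fold, a count taken only among the 47 called lower. Shares of all probe sets at this fold limit were not counted. Without the 17 genes caught by name, 62 members remained. Of these, 43 fell and 3 rose in 2 h controls, where 17.2% of all probe sets fell and 18.1% rose. After depolarization 19 fell and 3 rose at 2 h (15.7% and 9.51% of all probe sets). At 30 min 18 fell and 3 rose (13.1% and 10.8% of all probe sets). In the depolarized cultures themselves, the 2 h arrays lay wholly below the 30 min arrays for 53 members and wholly above for 8, against 28.3% and 21.6% of all probe sets.

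**Figure D1:**
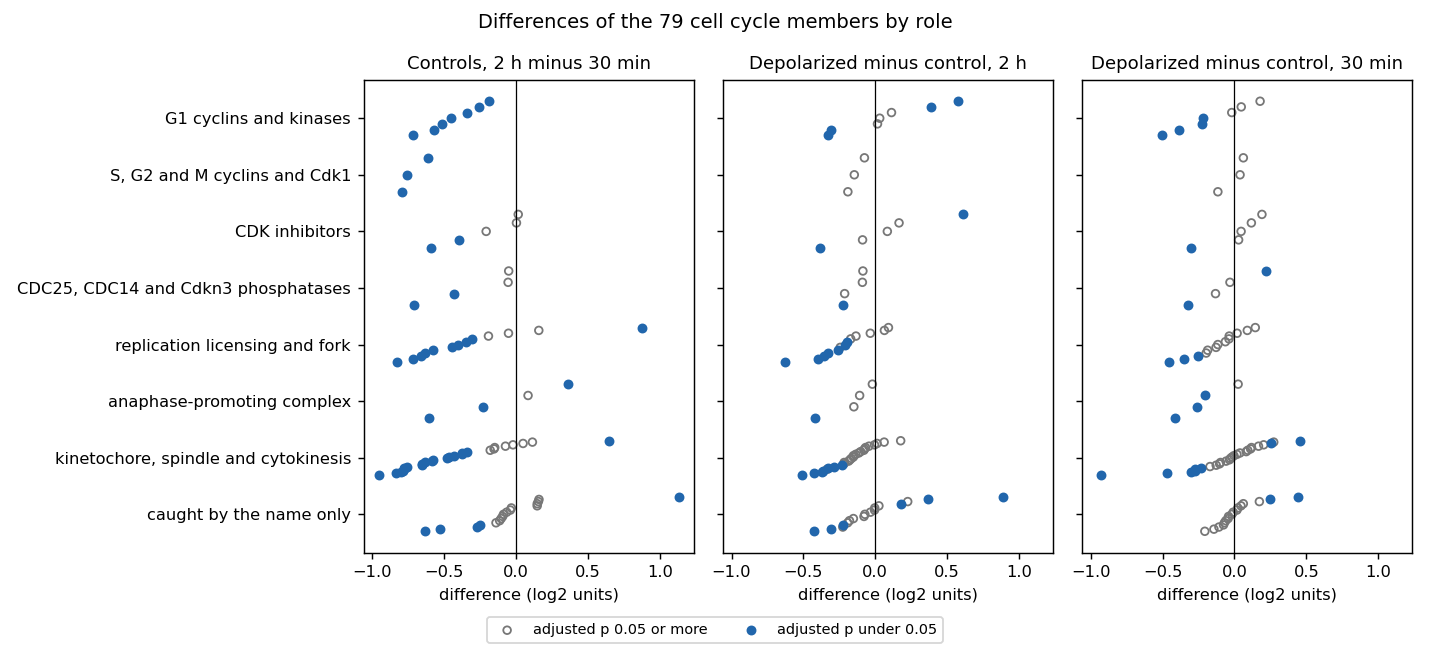
Differences of the 79 members in log2 units (horizontal), grouped by role (vertical), for 2 h controls minus 30 min controls, depolarized minus control at 2 h, and depolarized minus control at 30 min. Each point is a gene and filled points have adjusted p under 0.05; in the control panel 47 filled points lie left of 0, against 22 at 2 h and 18 at 30 min after depolarization.

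The G1 cyclins and kinases diverged after depolarization, while all 7 were lower in 2 h controls than in 30 min controls. The control call of Cdk6 was lost under 6 of 14 alternative settings, among them quantile normalization (-0.10, adjusted p = 0.173). Ccnd2, a D-type cyclin of dividing neural precursors, was at 11.58, 11.20 and 11.50 in depolarized 2 h cultures, against 10.98, 10.86 and 10.71 in their controls. It was 1.49-fold higher (log2 difference 0.58, SE 0.10, adjusted p = 0.000689). At 30 min its depolarized arrays (11.50, 11.72 and 11.62) overlapped the control arrays (11.48, 11.72 and 11.50), and the difference was 0.05 (adjusted p = 0.82). The level in depolarized 2 h cultures thus overlapped that of 30 min controls, and the 2 h controls stood alone at the low end. Ccnd1, the related cyclin, read 9.91, 9.61 and 9.69 in depolarized 2 h cultures and 9.34, 9.36 and 9.34 in their controls, a rise of 0.39 (SE 0.08, adjusted p = 0.00141) that all 3 of its probe sets passed. It read 9.85, 9.93 and 9.81 in depolarized 30 min cultures and 9.62, 9.78 and 9.66 in controls (0.18, adjusted p = 0.11). The groups did not overlap at either time at the brightest Ccnd1 probe set, but at its dimmer probe sets they overlapped at 30 min.

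E-type cyclins, which act at the G1 to S transition, fell at 30 min. Ccne2 read 6.62, 6.69 and 6.65 in depolarized 30 min cultures, against 7.20, 7.21 and 7.06 in controls, 1.42-fold lower (-0.51, SE 0.06, adjusted p = 1.93e-05). At 2 h it read 6.80, 6.69 and 6.67 in depolarized cultures and 6.74, 6.71 and 6.66 in controls (0.02, adjusted p = 0.894). The 30 min controls thus stood above the other 3 groups, which overlapped. Ccne2 is dim, with a mean of 6.81 over all arrays, below the lower quartile of all probe sets (6.83). Whether low signal limited its differences was not tested. Ccne1 fell at both times, to 7.81, 7.68 and 7.82 in depolarized 2 h cultures against 8.12, 8.10 and 8.08 in controls (-0.33, adjusted p = 0.00263). Its depolarized 30 min cultures read 8.35, 8.21 and 8.14, against 8.71, 8.56 and 8.59 in controls (-0.38, adjusted p = 0.000636). Cdk4, the partner of D-type cyclins, fell by 0.31 at 2 h (SE 0.06) and by 0.22 at 30 min (SE 0.06), a call lost on median centring (-0.17, adjusted p = 0.0514). Ccnd3 fell by 0.22 at 30 min, a call lost without depolarized replicate 2 or control replicate 3 (adjusted p = 0.0598 and 0.0636). No change of Cdk6 passed at either time.

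The B-type cyclins and Cdk1, the kinase of mitotic entry, did not pass the test after depolarization at either time but were lower in 2 h controls. Cdk1 read 9.85, 9.53 and 9.78 in depolarized 2 h cultures against 9.84, 9.92 and 9.62 in their controls (-0.08, 95% interval -0.27 to 0.12). Its depolarized 30 min cultures read 10.53, 10.63 and 10.62, against 10.61, 10.58 and 10.46 in controls (0.04, interval -0.15 to 0.23). Both pairs overlapped, while the 2 h controls lay below all 30 min controls (-0.76, SE 0.09, adjusted p = 8.21e-06). Ccnb1, which activates Cdk1, followed the same order, with 9.78, 9.46 and 9.56 in depolarized 2 h cultures and 9.84, 9.91 and 9.62 in controls. Depolarized 30 min cultures read 10.58, 10.45 and 10.37, against 10.50, 10.37 and 10.35 in controls. A dimmer Ccnb1 probe set, however, rose by 0.39 at 30 min (adjusted p = 0.00267), where the brighter one differed by 0.06, so its probe sets disagree. Both fell in 2 h controls, by 1.03 for the dimmer and 0.61 for the brighter, and Ccnb2 fell by 0.79.

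Of the 5 measured CDK inhibitors, which hold kinases in check, 1 rose and 1 fell at 2 h after depolarization. At 30 min 1 fell and none rose, and in 2 h controls 2 fell, Cdkn2a and Cdkn2c. Of all probe sets, 9.51% rose and 15.7% fell at 2 h, and 10.8% rose and 13.1% fell at 30 min. In 2 h controls 18.1% rose and 17.2% fell. Cdkn1b (p27), which restrains E-type cyclin kinases in cells leaving the cycle, read 11.23, 11.33 and 10.99 in depolarized 2 h cultures against 11.07, 10.90 and 11.09 in controls (0.17, adjusted p = 0.221). It read 11.02, 11.29 and 11.10 in depolarized 30 min cultures and 11.01, 11.11 and 10.93 in controls (0.12, adjusted p = 0.445), so every group overlapped the others. Its 2 h and 30 min controls differed by 0.0029 log2 units. Cdkn2b (p15), an inhibitor of Cdk4 and Cdk6, rose at 2 h (0.61, SE 0.14, adjusted p = 0.00366), although its depolarized arrays (8.01, 7.54 and 8.20) overlapped the controls (7.07, 7.30 and 7.55) by 1 array each. Cdkn2c (p18), of the same family, fell by 0.38 at 2 h and by 0.30 at 30 min. The 30 min call was lost without either of depolarized replicates 1 and 3 or control replicates 1 and 2 (adjusted p = 0.0542 to 0.117).

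Cdc25a, a phosphatase that activates CDKs, was the member that passed in opposite directions. It fell to 6.71, 6.68 and 6.82 in depolarized 2 h cultures against 6.89, 7.04 and 6.96 in controls (-0.23, adjusted p = 0.02). It was higher at 30 min, with 7.28, 7.20 and 7.24 in depolarized cultures and 7.03, 7.09 and 6.93 in controls (0.22, adjusted p = 0.0222). The groups did not overlap at either time, but each call failed on leaving out 1 of 3 arrays, namely depolarized replicate 4 or 5 or control replicate 5 at 2 h (adjusted p = 0.0704 to 0.0922) and depolarized replicate 1 or 3 or control replicate 3 at 30 min (0.0525 to 0.119). A dimmer Cdc25a probe set passed at neither time. Cdc25b, a related phosphatase active before mitosis, fell by 0.33 at 30 min (SE 0.08, adjusted p = 0.00544).

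Among the 13 replication members none rose after depolarization, 7 fell at 2 h and 3 at 30 min, where 15.7% and 13.1% of all probe sets fell. The helicase subunit Mcm2, whose promoter is printed above, read 8.95, 8.75 and 8.80 in depolarized 2 h cultures against 9.32, 9.20 and 9.18 in controls (-0.40, SE 0.08, adjusted p = 0.00125). At 30 min it read 9.40, 9.61 and 9.62 in depolarized cultures and 9.96, 9.91 and 9.82 in controls (-0.35, adjusted p = 0.00267). Its 4 groups did not overlap. Orc5, a subunit of the origin recognition complex that loads the Mcm ring, read 7.96, 7.99 and 8.14 in depolarized 2 h cultures and 8.82, 8.69 and 8.47 in controls, 1.55-fold lower (-0.63, SE 0.09, adjusted p = 0.000154). At 30 min it read 8.24, 8.24 and 8.28 in depolarized cultures and 8.91, 8.60 and 8.63 in controls (-0.46, adjusted p = 0.00148). Orc5 differed from Mcm2 in its controls, which overlapped between the 2 h and 30 min collections (-0.05, adjusted p = 0.684).

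Mcm6 fell by 0.36 at 2 h (adjusted p = 0.00445) and Mcm7 by 0.21 at 2 h and 0.25 at 30 min. Mcm5 read 8.71, 8.54 and 8.65 in depolarized 2 h cultures and 8.84, 8.87 and 8.79 in controls (-0.20, adjusted p = 0.0281). Depolarized 30 min cultures read 9.31, 9.30 and 9.27, against 9.35, 9.41 and 9.47 in controls (-0.12, adjusted p = 0.225), again without overlap. The 2 h calls of Mcm5 and Mcm7 were each lost without any of depolarized replicates 5 and 6 and control replicates 4 and 5 (adjusted p = 0.052 to 0.125 for Mcm5, 0.0701 to 0.0719 for Mcm7). Pcna, the sliding clamp of the replication fork, did not pass at either time. It read 11.60, 11.43 and 11.43 in depolarized 2 h cultures against 11.55, 11.59 and 11.42 in controls, and 11.88, 11.90 and 11.86 in depolarized 30 min cultures against 11.87, 11.91 and 11.81 in controls. Both pairs overlapped, and the 2 h controls were 1.27-fold below the 30 min controls (-0.34, adjusted p = 0.00088).

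Top2a, the topoisomerase that untangles replicated DNA, read 9.77, 9.53 and 9.88 in depolarized 2 h cultures and 10.13, 10.21 and 9.82 in controls (-0.33, adjusted p = 0.0293). These groups overlapped, a dimmer probe set did not pass, and the call was lost without any of depolarized replicates 4 and 5 and control replicates 4 and 5 (adjusted p = 0.0546 to 0.145). At 30 min Top2a read 10.84, 10.88 and 10.82 in depolarized cultures and 10.86, 11.03 and 10.77 in controls. Orc4, another origin recognition subunit, was the replication member that rose in 2 h controls, at 10.26, 10.14 and 10.47 there and 9.47, 9.50 and 9.29 in 30 min controls (0.87, SE 0.09, adjusted p = 1.88e-06). After depolarization Orc4 read 10.04, 10.11 and 9.95 at 2 h (-0.26, adjusted p = 0.0447) and 9.42, 9.63 and 9.64 at 30 min (0.14, adjusted p = 0.305). Its 2 h call was lost without any of depolarized replicates 4 and 6 and control replicates 4 and 6 (adjusted p = 0.0824 to 0.182). The remaining replication members measured, Mcm3, Mcm4, Orc2, Orc6 and Rrm1, passed at neither time at their brightest probe set.

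Of the 4 members of the anaphase-promoting complex and its activators, which mark mitotic proteins for destruction, 3 fell at 30 min and 1 at 2 h at their brightest probe sets, where 13.1% and 15.7% of all probe sets fell. The subunit Cdc23 read 9.04, 9.09 and 9.10 in depolarized 2 h cultures against 9.63, 9.54 and 9.31 in controls (-0.42, SE 0.08, adjusted p = 0.00129). It read 8.70, 8.62 and 8.82 in depolarized 30 min cultures and 9.06, 9.12 and 9.20 in controls (-0.42, adjusted p = 0.00104). Depolarized arrays lay below control arrays at both times, and the response differed between times by -0.00 log2 units (95% interval -0.24 to 0.24). The subunits Cdc26 and Cdc16 fell by 0.26 and 0.20 at 30 min, of which Cdc26 failed on omitting control replicate 3 (adjusted p = 0.0504) and Cdc16 on omitting any of the 3 depolarized arrays or control replicates 1 and 2 (0.063 to 0.202). The probe sets of Cdc26 disagree at 2 h, where the brightest did not pass (-0.11, adjusted p = 0.259) and the other 2 fell (-0.40 and -0.42, adjusted p = 0.00143 and 0.00216). Cdc20, an activator of the complex, passed at neither time and fell by 0.60 in 2 h controls.

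**Figure D2:**
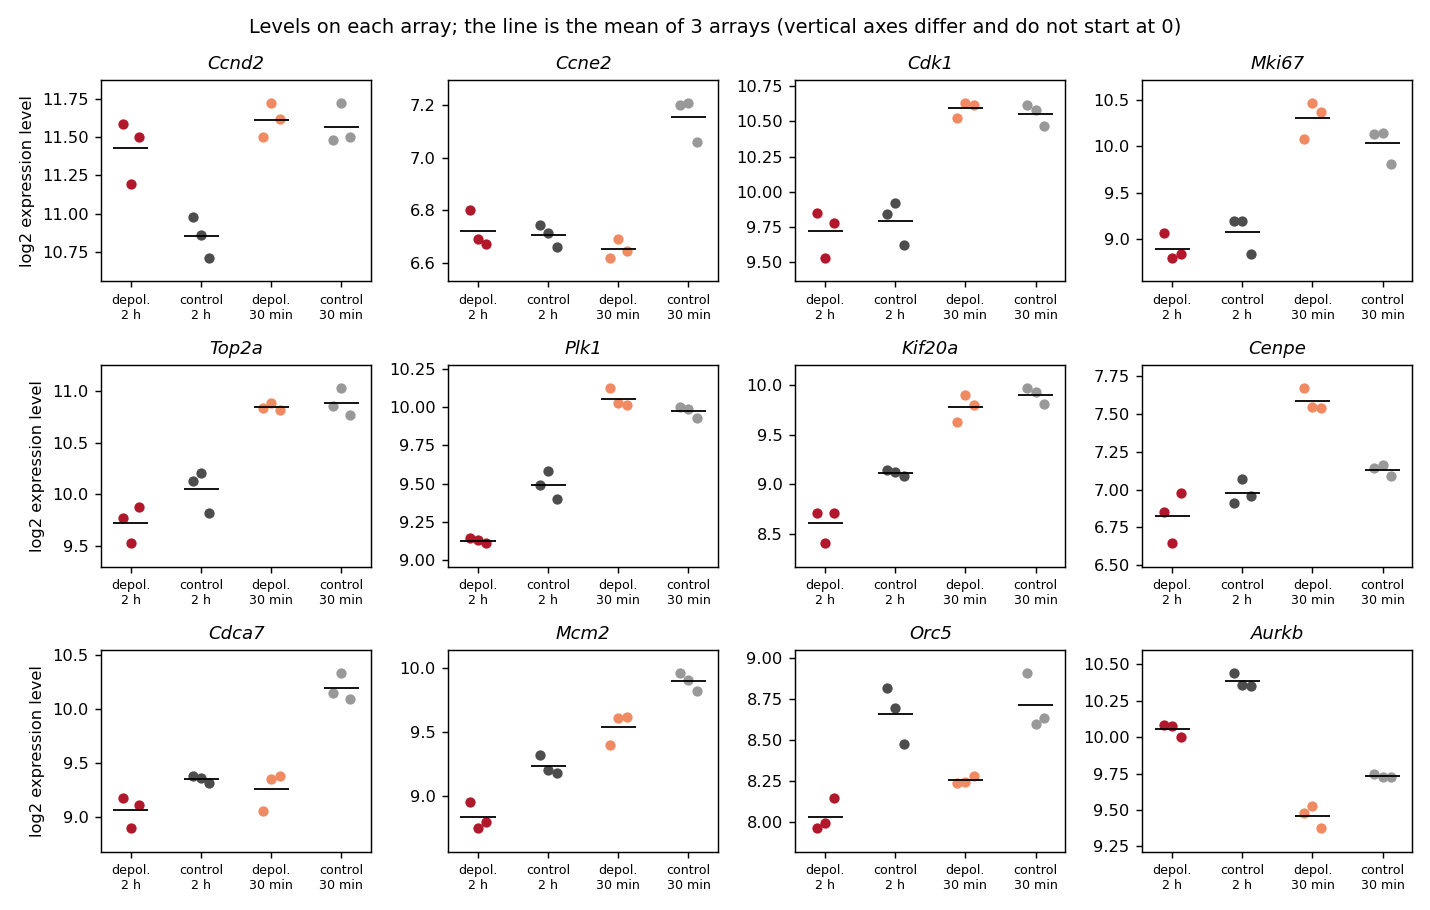
Log2 expression level (vertical, scale differs by panel) of 12 members on each array of the 4 groups (horizontal); points are arrays and lines are means of 3. Cdk1, Mki67 and Top2a separate by collection time, Mcm2 and Aurkb by both collection time and treatment, and Ccne2 and Cdca7 are highest in the 30 min controls.

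The largest role group held 26 genes of the kinetochore, spindle and cytokinesis, with the other Cdca genes and Mki67. Of these, 7 fell and none rose at 2 h after depolarization, and 6 fell and 2 rose at 30 min. Of all probe sets, 15.7% fell and 9.51% rose at 2 h, and 13.1% fell and 10.8% rose at 30 min. The Polo-like kinase Plk1, which acts from mitotic entry to cytokinesis, read 9.14, 9.13 and 9.11 in depolarized 2 h cultures against 9.49, 9.58 and 9.40 in controls, 1.29-fold lower (-0.36, SE 0.06, adjusted p = 0.000526). It read 10.12, 10.03 and 10.01 in depolarized 30 min cultures and 10.00, 9.99 and 9.93 in controls (0.08, adjusted p = 0.425). The fall was thus seen at 2 h, and the small 30 min difference ran the other way. Kif20a, a kinesin of the spindle midzone, read 8.71, 8.40 and 8.71 in depolarized 2 h cultures and 9.14, 9.12 and 9.09 in controls, 1.42-fold lower (-0.51, SE 0.09, adjusted p = 0.000577). Its depolarized 30 min arrays (9.62, 9.90 and 9.80) overlapped the controls (9.97, 9.93 and 9.81). Plk4, the kinase that starts centriole duplication, fell by 0.43 at 2 h (SE 0.08, adjusted p = 0.00136), and the 30 min difference was -0.10.

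All 3 Aurora kinase genes were measured. Aurkb, the enzyme of the chromosomal passenger complex, read 10.08, 10.08 and 10.00 in depolarized 2 h cultures against 10.44, 10.36 and 10.35 in controls (-0.33, SE 0.06, adjusted p = 0.000881). It read 9.48, 9.53 and 9.37 in depolarized 30 min cultures and 9.75, 9.73 and 9.73 in controls (-0.27, adjusted p = 0.00292). Aurkb was the member of this group that rose in 2 h controls (0.65, SE 0.06, adjusted p = 6.84e-07). Aurkc, a related kinase best known from germ cells, read 8.68, 8.80 and 8.87 in depolarized 2 h cultures and 9.20, 9.20 and 9.06 in controls (-0.37, adjusted p = 0.00216). The 30 min values were 8.54, 8.62 and 8.55 in depolarized cultures and 9.17, 9.05 and 8.90 in controls (-0.47, adjusted p = 0.000225). Neither kinase overlapped between treatments at either time. Aurka, which builds the spindle poles, differed by -0.33 at 2 h and 0.17 at 30 min and passed at neither. Some alternatives did pass Aurka at 2 h, among them array weights (-0.36, adjusted p = 0.0214) and leaving out control replicate 6 (-0.51, adjusted p = 0.00135).

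Partners of Aurkb behaved differently between the controls. Birc5 (survivin), which holds Aurkb at the centromere, read 8.66, 8.63 and 8.50 in 2 h controls against 9.32, 9.39 and 9.36 in 30 min controls, 1.69-fold lower (-0.76, SE 0.07, adjusted p = 5.15e-07). Cdca8 (borealin), of the same complex, was also lower (-0.78, SE 0.10). Birc5 in depolarized cultures read 8.64, 8.49 and 8.53 at 2 h and 9.28, 9.44 and 9.26 at 30 min, overlapping the controls of each time. So within 1 complex the control difference was positive for the kinase and negative for both partners.

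Cdca7, a zinc finger protein that recruits the chromatin remodeller Hells, had the largest fall of any member at 30 min. It read 9.05, 9.35 and 9.38 in depolarized 30 min cultures against 10.15, 10.33 and 10.09 in controls, 1.90-fold lower (-0.93, SE 0.09, adjusted p = 2.19e-06). At 2 h it read 9.18, 8.89 and 9.11 in depolarized cultures and 9.38, 9.35 and 9.31 in controls (-0.29, adjusted p = 0.0334). The 30 min controls stood apart above all other groups. The 2 h call was lost without any of depolarized replicates 5 and 6 and control replicates 4 and 5 (adjusted p = 0.0514 to 0.152). Its relative Cdca7l fell by 0.30 at 30 min.

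Cenpe, the kinesin that carries chromosomes at the kinetochore, was the largest rise at 30 min. It read 7.67, 7.54 and 7.54 in depolarized 30 min cultures against 7.14, 7.16 and 7.09 in controls (0.45, SE 0.08, adjusted p = 0.000448). At 2 h it read 6.85, 6.65 and 6.98 in depolarized cultures and 6.91, 7.07 and 6.96 in controls (-0.15, adjusted p = 0.189), where the groups overlapped. Mki67, the chromosome coat protein used as a marker of dividing cells, read 9.06, 8.79 and 8.84 in depolarized 2 h cultures and 9.19, 9.19 and 8.84 in controls (-0.18, adjusted p = 0.329). At 30 min it read 10.08, 10.46 and 10.37 in depolarized cultures and 10.13, 10.14 and 9.81 in controls (0.27, adjusted p = 0.125). Its treatments overlapped at both times, with 95% intervals of -0.43 to 0.08 at 2 h and 0.02 to 0.53 at 30 min.

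The control collections differed more for Mki67 than for any other member that fell, 1.94-fold lower at 2 h (-0.96, SE 0.12, adjusted p = 1.52e-05). Bub1b, of the spindle checkpoint, read 7.13, 7.22 and 7.16 in 2 h controls against 8.06, 7.92 and 7.93 in 30 min controls (-0.80, adjusted p = 1.5e-06). Kif2c, a microtubule-depolymerizing kinesin, read 8.61, 8.42 and 8.43 in 2 h controls and 9.29, 9.32 and 9.20 in 30 min controls (-0.78, adjusted p = 2.29e-06). Cdca3, which triggers mitotic entry, read 9.73, 9.72 and 9.58 in 2 h controls and 10.33, 10.37 and 10.29 in 30 min controls (-0.65, adjusted p = 2.89e-06). No 2 h control reached a 30 min control for any of these genes. Bub1b also fell after depolarization at 2 h, to 6.92, 6.86 and 7.03 (-0.23, adjusted p = 0.0437), a call lost without depolarized replicate 4 or 5 or any of the 3 controls (0.0708 to 0.143). Kif2c (8.51, 8.25 and 8.47 in depolarized 2 h cultures) and Cdca3 (9.56, 9.42 and 9.64) did not pass there. At 30 min the depolarized cultures read 7.77 to 8.09 for Bub1b, 9.14 to 9.34 for Kif2c and 10.38 to 10.50 for Cdca3, and none of these passed.

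Of the 17 genes caught by name, 3 rose and 3 fell at 2 h (17.6% each), and 2 rose (11.8%) and none fell at 30 min. Of all probe sets, 9.51% rose and 15.7% fell at 2 h, and 10.8% rose and 13.1% fell at 30 min. The 17 genes held the largest rise of any member at 2 h and in 2 h controls. Cdc42ep1, an effector of Cdc42 in cytoskeletal assembly, read 10.35, 9.87 and 10.19 in depolarized 2 h cultures against 9.25, 9.21 and 9.27 in controls, 1.85-fold higher (0.89, SE 0.09, adjusted p = 8.18e-06). At 30 min it read 9.92, 9.94 and 9.96 in depolarized cultures and 9.88, 9.96 and 9.79 in controls (0.06, adjusted p = 0.725). Cdc42ep3, of the same family, was 2.19-fold higher in 2 h controls (9.67, 9.71 and 9.68) than in 30 min controls (8.65, 8.37 and 8.62), the largest control difference of any member (1.13, adjusted p = 4e-08). Depolarized cultures read 9.41, 9.63 and 9.44 at 2 h and 8.48, 8.49 and 8.37 at 30 min for Cdc42ep3, which passed at neither time. Cdc5l read 11.07, 11.05 and 11.21 in depolarized 30 min cultures and 10.68, 10.63 and 10.68 in controls (0.44, adjusted p = 0.000188). At 2 h it read 10.68, 10.52 and 10.61 in depolarized cultures and 10.68, 10.47 and 10.59 in controls. Aurkaip1, a mitochondrial ribosome protein that binds Aurora A, fell to 9.46, 9.50 and 9.67 in depolarized 2 h cultures against 10.11, 9.95 and 9.86 in controls (-0.43, adjusted p = 0.000843). Its 30 min values were 9.72, 9.82 and 9.89 in depolarized cultures and 10.02, 9.95 and 10.08 in controls (-0.21, adjusted p = 0.0704).

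The difference between the responses, 2 h minus 30 min, passed for 10 members, 5 in each direction, where 6.16% of all probe sets were positive and 6.79% negative. A loess correction for level changed this to 7 positive and 4 negative. The positive ones were Cdc42ep1 (0.83, SE 0.13, adjusted p = 0.000537), Cdca7 (0.64), Ccnd2 (0.53), Ccne2 (0.52, adjusted p = 0.00106) and Cdc42ep2 (0.39). The negative ones were Cenpe (-0.60, SE 0.11, adjusted p = 0.0019), Cdc25a (-0.45), Plk1 (-0.44), Cdc5l (-0.42) and Orc4 (-0.40). The Ccnd2 difference failed on leaving out 1 of 5 arrays (depolarized replicates 1, 4 and 6, 30 min control replicate 2 and 2 h control replicate 6; adjusted p = 0.0528 to 0.0673). Those of Cdc42ep2 and Orc4 failed on leaving out 1 of 7 and 1 of 9 arrays, with adjusted p up to 0.12 and 0.122. That of Cdc25a failed on the mean of its probe sets (-0.25, adjusted p = 0.113). Its dimmer probe set differed by -0.05 (adjusted p = 0.874).

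Comparisons at the 2 times share no arrays, but they share the estimate of spread of each probe set. The calls at the 2 times are therefore not independent. Both times saw a fall of 10 members: Aurkb, Aurkc, Ccne1, Cdc23, Cdca7, Cdk4, Cdkn2c, Mcm2, Mcm7 and Orc5. These are 45.5% of the 22 that fell at 2 h and 55.6% of the 18 that fell at 30 min, against 39.9% and 47.7% for all probe sets that fell. The one member that rose at both was Cdc42, by 0.18 at 2 h, a call lost without any single array of the 6, and by 0.25 at 30 min. Its other probe set passed at neither time (0.09, adjusted p = 0.481 at 2 h, and 0.05, adjusted p = 0.71 at 30 min), and the mean of its probe sets did not pass at 30 min (0.15, adjusted p = 0.0959). At neither time did 40 members pass, while 39 passed at 1 time or both. Of all 15866 probe sets, 4001 passed at 2 h and 3805 at 30 min. Among them, 601 rose at both times, 994 fell at both and 218 passed in opposite directions. Taken singly, 35.4% of members passed at 2 h, against 25.2% of all probe sets. At 30 min 29.1% of members passed, against 23.98% of all probe sets.

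**Figure D3:**
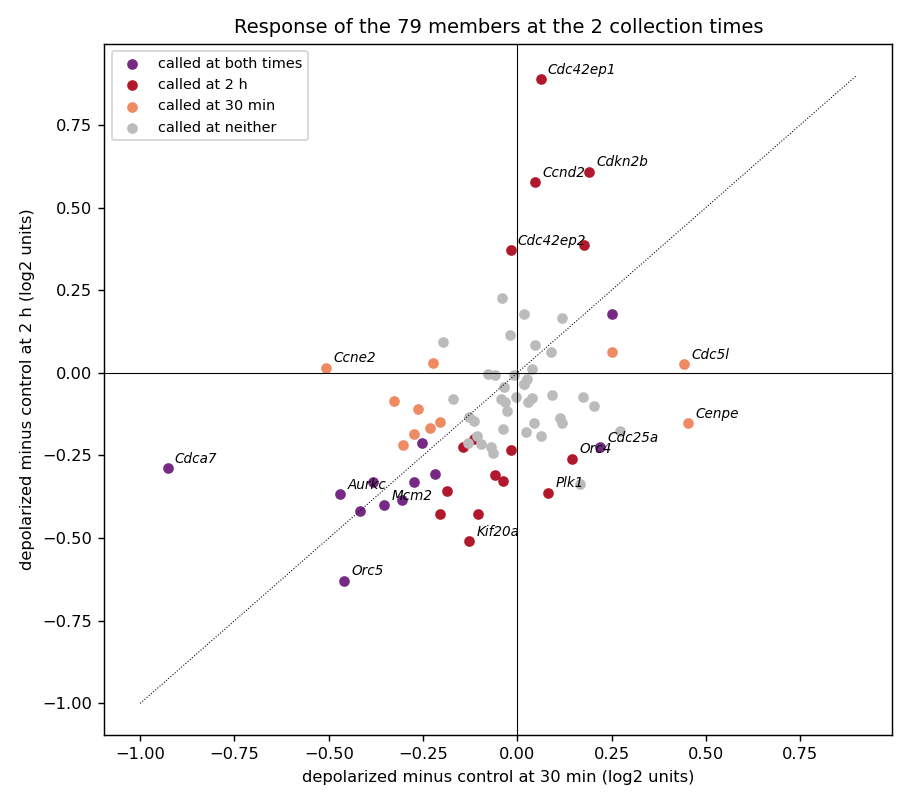
Depolarized minus control at 2 h (vertical) against 30 min (horizontal), in log2 units, for the 79 members; colour gives the times at which a gene passed and the dotted line marks equal responses. Cdca7 lies far left, Ccnd2 and Cdc42ep1 rise above 0.5 at 2 h with 30 min differences near 0, and Orc5 is low at both times.

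Genes of the same machinery outside the naming rule were counted alongside, and their counts here and in the lists that follow stand beside shares of all probe sets of 15.7% lower and 9.51% higher at 2 h, 13.1% and 10.8% at 30 min, and 17.2% and 18.1% in 2 h controls. Of 26 measured replication factors, 13 fell and none rose at 2 h, and 9 fell and none rose at 30 min, while 19 fell and none rose in 2 h controls. The histone chaperone Asf1b fell by 0.38 at 2 h and by 0.59 at 30 min, the clamp loader subunit Rfc2 by 0.55 and 0.38, and the polymerase subunit Pold1 by 0.57 and 0.35. Of 21 further mitotic genes, 10 fell and 2 rose at 2 h, 4 fell and 2 rose at 30 min, and 16 fell and 2 rose in 2 h controls. The spindle kinesin Kif15 fell by 0.83 at 2 h (SE 0.10, adjusted p = 2.79e-05) and by 0.53 at 30 min.

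The small CDK subunits Cks1b and Cks2, which bind CDKs and their substrates, were the 2 further mitotic genes that rose at 30 min. Cks1b read 10.85, 10.99 and 10.88 in depolarized 30 min cultures against 10.23, 10.28 and 10.25 in controls (0.66, SE 0.09, adjusted p = 5.57e-05). Cks2 read 11.25, 11.27 and 11.21 in depolarized 30 min cultures and 10.61, 10.58 and 10.56 in controls (0.66, adjusted p = 6.83e-05). At 2 h Cks1b was still higher after depolarization (0.38, adjusted p = 0.00633), and Cks2 was lower (-0.28, adjusted p = 0.0416).

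Of 13 regulators in the E2F, RB and DREAM list, 1 rose and 1 fell at 2 h, and 2 rose and 3 fell at 30 min. Myc, a growth factor-induced driver of cell cycle entry, read 10.18, 9.36 and 9.86 in depolarized 2 h cultures against 8.44, 8.32 and 8.18 in controls (1.49, SE 0.15, adjusted p = 6.43e-06). It read 9.92, 10.19 and 10.21 in depolarized 30 min cultures and 8.20, 8.47 and 8.40 in controls (1.75, adjusted p = 4.26e-07), a rise larger than that of any member at either time. Lin37, a DREAM and MuvB subunit, fell by 0.51 at 30 min. Foxm1, the activator of mitotic promoters, passed at neither time and fell by 0.54 in 2 h controls.

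Among 15 DNA damage checkpoint genes, 2 rose and 5 fell at 2 h and 3 rose and 5 fell at 30 min. Cdkn1a (p21), the CDK inhibitor left out of the rule, read 10.33, 10.06 and 10.28 in depolarized 2 h cultures against 9.43, 9.49 and 9.35 in controls (0.80, SE 0.09, adjusted p = 1.05e-05), and differed by 0.22 at 30 min (adjusted p = 0.0727). Ccng2, a cyclin linked to cell cycle arrest, read 8.66, 8.68 and 8.65 in depolarized 2 h cultures and 9.42, 9.33 and 9.15 in controls (-0.64, adjusted p = 2.09e-05). Its 30 min values were 9.83, 9.99 and 9.92 in depolarized cultures and 8.95, 8.83 and 8.79 in controls (1.06, adjusted p = 4.88e-08). So Ccng2 passed in opposite directions at the 2 times, without overlap at either.

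**Figure D4:**
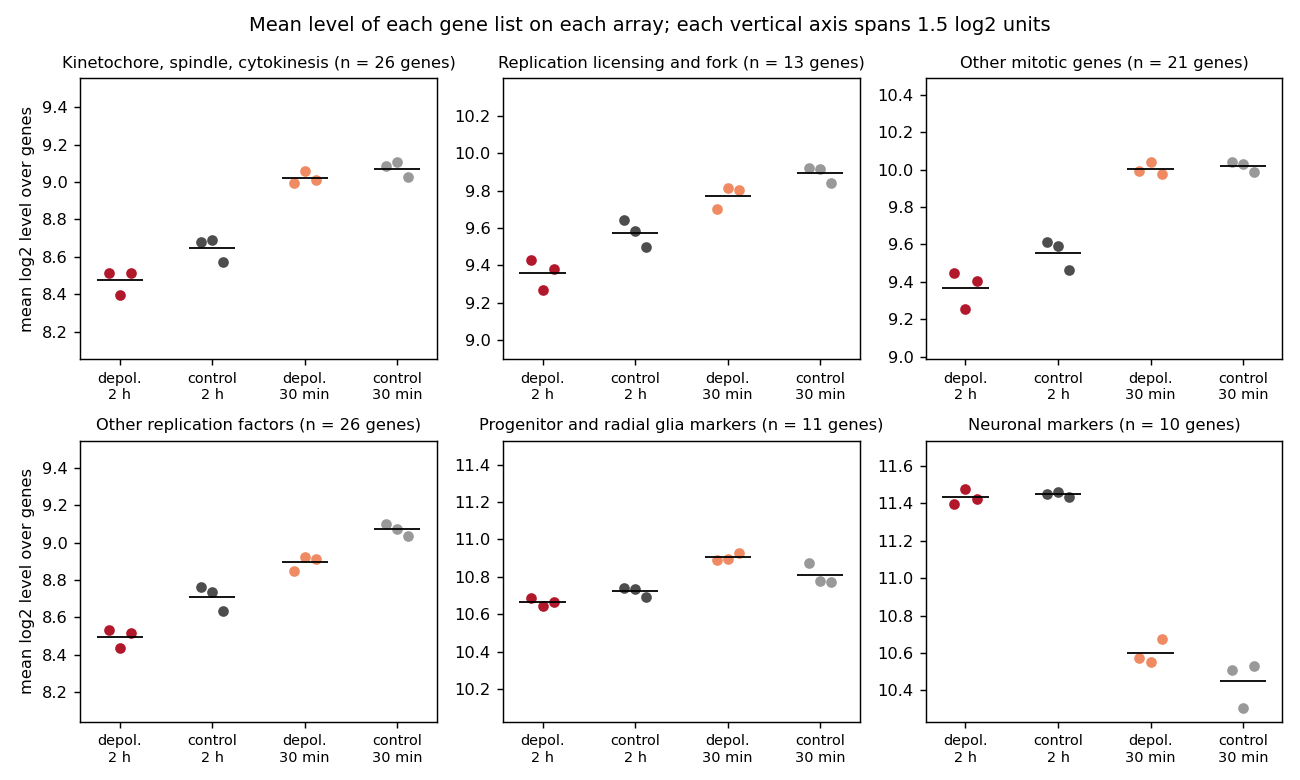
Mean log2 level over the genes of 6 lists (vertical, each axis spanning 1.5 log2 units) on each array of the 4 groups (horizontal); points are arrays and lines are means of 3. The 4 cell cycle lists are lower in both 2 h groups than in both 30 min groups, and the neuronal list is higher there.

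Markers of cell types moved with collection time as well. All 10 measured neuronal markers were higher in 2 h controls than in 30 min controls (median 1.07), with list means of 11.44 to 11.46 on 2 h control arrays and 10.31 to 10.53 on 30 min control arrays. Among 7 dopaminergic markers 5 were higher. Of 11 progenitor and radial glia markers 7 were lower and 2 higher (10.69 to 10.74 against 10.77 to 10.87), and 5 of 7 oligodendrocyte lineage markers were lower (7.93 to 8.04 against 8.51 to 8.61), among them Olig1 (-2.45). Of 9 microglial markers none passed (6.94 to 7.05 against 7.06 to 7.14), of 7 astrocyte markers 1 was higher and 2 lower, and of 11 endothelial, mural and fibroblast markers 1 was higher and 3 lower. Their part in the control result was not tested. Which arrays were normalized together is not given in the sources used here, and collection time cannot be told apart from any difference in preparation, array handling or normalization between the collections, and in bulk RNA fewer dividing cells cannot be told apart from less RNA per cell.

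The same lists were counted between depolarized and control cultures. Neuronal markers rose in 2 of 10 cases at 2 h and in 1 of 10 at 30 min, and none fell. Progenitor markers rose in 2 and fell in 3 of 11 at 2 h, and rose in 2 and fell in 1 at 30 min. Of the oligodendrocyte markers 2 fell at 2 h and 1 at 30 min, and of the astrocyte markers none passed. Dopaminergic markers rose in 2 and fell in 1 of 7 cases at 2 h, and 1 rose at 30 min. Of the 9 microglial markers none passed at 2 h and 1 rose at 30 min, and of the 11 endothelial, mural and fibroblast markers 1 rose and 1 fell at 2 h and 1 fell at 30 min. The part of these markers in the treatment responses was not tested.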

How the data were processed

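Gene expression was measured on 12 Affymetrix rat arrays, 3 per group. The deposited values are log2 expression levels that the authors computed by RMA (version not given in the sources used here), per the submitters' processing notes. Which arrays were normalized together is not given in the sources used here. Arrays have no read depth; precision is limited by their number. Of 15923 probe sets, 57 array controls were left out. A single symbol was given for 12783, several for 312 and none for 2771.

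One mean per group was fitted for each of 15866 probe sets with limma 3.58.1 in R 4.3.3 (8 residual degrees of freedom, no replicate block). P-values are two-sided and Benjamini-Hochberg adjusted over all of them. SE, intervals and p-values measure the spread between pooled cultures. The fit was tested on simulated data. The members, lists, motifs and roles were chosen with earlier results of these data known. Values by array are given for up to 8 members with the smallest p in each comparison and for 10 core genes; other genes named with such values were picked after their values were seen. The 23 alternatives covered scaling, filters on dim probe sets, priors, weights, thresholds, a replicate block and each array left out. RefSeq promoters were searched for fixed letters on both strands.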

Additional observations from a re-analysis of the deposited data

Results flagged for a closer look

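The response to depolarization differed between 2 h and 30 min, by limma's interaction test adjusted over all probe sets, for the following genes. Differences are the 2 h response minus the 30 min response in log2 units. Groups of 3 arrays are too small for a check of single arrays that stand apart.

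Among G1 regulators these were Ccnd2 (0.53), which rose at 2 h, and Ccne2 (0.52), which fell at 30 min. Among mitotic regulators they were Cdc25a (-0.45), Plk1 (-0.44) and Cenpe (-0.60), and in replication Orc4 (-0.40). Cdca7 differed by 0.64, with a fall of 0.29 at 2 h and of 0.93 at 30 min. Of genes caught by name, Cdc42ep1 (0.83), Cdc42ep2 (0.39) and Cdc5l (-0.42) differed.

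Outside the naming rule, the replication factors Gins3 (0.30) and Rnaseh2a (-0.34) and the mitotic genes Cks2 (-0.94), Ube2c (-0.35) and Hmmr (-0.53) differed. So did E2f4 (0.42), Cdkn1a (0.57), Gadd45a (-0.66) and Ccng2 (-1.70, SE 0.11, adjusted p = 1.04e-07).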

How the results depend on the processing

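At an adjusted p of 0.01 in limma's test, 14 members were lower at 2 h, 3 higher at 30 min, and 3 positive and 3 negative in the response difference. Array weights gave 9 higher members at 30 min and 11 negative response differences, median centring gave 8 higher at 30 min, and without the dimmest 50% of probe sets, which left 57 members, 3 response differences were positive. Leaving out each array in turn gave 5 to 6 higher and 15 to 24 lower members at 2 h, 3 to 5 higher (3 without 30 min control replicate 3) and 14 to 17 lower at 30 min, 3 to 5 positive (3 without 30 min control replicate 2 or 2 h control replicate 6) and 4 to 7 negative response differences, and 4 higher and 44 to 48 lower in 2 h controls. The causes were not tested.

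The direction of no called gene turned under any alternative run for it. Under all alternatives run for each call, 46 of 51 calls between controls passed (14 to 16 alternatives per call), as did 19 of 28 at 2 h (16 to 17), 13 of 23 at 30 min (15 to 17) and 5 of 10 response differences (20 to 22). Same-numbered depolarized and control arrays did not deviate together (correlations 0.24, -0.11 and -0.24 at 2 h, and -0.32, 0.23 and 0.05 at 30 min), and not every array correlated best with its own number. With the replicate block, 5 members were higher and 17 lower at 2 h, 5 and 16 at 30 min, and 4 response differences were positive and 4 negative. No paired analysis was possible for the controls because the 2 collection times share no replicate numbers. Median centring moved the split of all probe sets to 2014 higher and 1903 lower at 2 h (1509 and 2492 without it) and to 2339 and 1631 at 30 min (1720 and 2085).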
